A study of Mus musculus with 20 samples.

Results

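The amino acid transporters described here were the probes whose gene name belongs to 1 of 7 solute carrier families, namely Slc1a, Slc3a, Slc6a, Slc7a, Slc36a, Slc38a and Slc43a, with Slc7a11 and Slc7a2 left out of the set. By this rule on names 81 of the 39429 probes and 61 of the 30119 genes on the arrays were members. One of the 61, Slc7a6os, is the neighbour of Slc7a6 and is not itself a transporter. A filter on dim signals kept 42 of the 61 members, among the 21963 genes kept in all. To pass, a probe had to be well above its background on 3 or more arrays, in either channel. The 19 members that did not pass were Slc1a1, Slc1a3, Slc3a1, Slc6a2, Slc6a3, Slc6a5, Slc6a7, Slc6a14, Slc6a15, Slc6a17, Slc6a18, Slc6a20b, Slc7a9, Slc7a10, Slc7a12, Slc7a14, Slc38a4, Slc38a5 and Slc43a1. Each of them was well above background on 0, 1 or 2 arrays, and they enter no fit.

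Amino acids cannot cross a membrane unaided, and these carriers move them by exchange, by coupling to sodium, chloride or protons, or by facilitated diffusion. Several Slc7 carriers are light chains that reach the plasma membrane only when joined to the heavy chain Slc3a2, known as CD98 or 4F2hc. In macrophages, arginine taken up by the cell feeds nitric oxide synthase, and leucine, glutamine and arginine are read at the lysosome by the kinase complex mTORC1, where Slc38a9 acts as an arginine sensor.

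The 20 arrays carried 2 dyes, and each of them set the transcripts of LPS-treated macrophages against those of untreated macrophages of the same genotype and time. The cells came from the bone marrow of C57BL/6 mice, were grown for 6 days with M-CSF from L929-conditioned medium, and were then kept in serum-free medium with or without 200 ng/mL of Salmonella LPS, a ligand of the receptor Tlr4. The 4 genotypes were, by label, deficient in both MyD88 and TRIF (double-KO), deficient in MyD88 (MyD88-KO), deficient in TRIF (TRIF-KO) and wild-type, with 1 array at each of 1, 2, 4, 8 and 16 h. Tlr4 passes its signal on through the adapter proteins MyD88 and TRIF (encoded by Ticam1), and the genotypes ask which responses need which adapter. Nothing in the labels tells whether arrays came from separate animals or cultures. For that reason a p-value is not known to cover the spread between animals or cultures. The 5 arrays of a genotype are 5 times and not repeats of 1 condition. The spread behind a p-value thus includes differences in time course between genotypes, and technical spread cannot be told from it. Each gene has 1 such spread, shared by all genotypes. For Slc7a8 the SD of the log2 ratios was 0.76 for MyD88-KO arrays but 0.06 for double-KO arrays. An SE can therefore be too small for a responding genotype and too large for double-KO cells.

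The untreated log2 level of Ticam1 was 7.28 ± 0.04 in double-KO, 10.54 ± 0.19 in MyD88-KO, 10.81 ± 0.28 in TRIF-KO and 10.65 ± 0.19 in wild-type cells (SD, n = 5 each). The arrays labelled TRIF-KO thus had Ticam1 transcript at the wild-type level, and they are called TRIF-KO-labelled below. The Myd88 probe was bright in every genotype, between 14.01 and 14.45, and checks no label. All 8 macrophage markers were well above background on every array, and so were 7 of 8 neutrophil markers. Cy5 labelled the LPS-treated RNA on 19 arrays, and Cy3 did on 1, the 2 h array of MyD88-KO cells, whose ratio was turned round. A mean ratio over times therefore holds any effect of the dyes on that gene, and dye and LPS cannot be told apart in it. In a difference between genotypes, a dye effect that is alike on all arrays cancels, apart from the turned array. The arrays lay on 5 slides scanned on 2 scan days, and no slide held the same time of 2 genotypes. In such bulk RNA, fewer cells with a transcript and less of it per cell cannot be told apart.

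Across the members, mean ratios were called in every genotype but double-KO. A member was called where the mean log2 ratio of LPS over untreated cells, over the 5 times, had an adjusted p under 0.05 by limma with Benjamini-Hochberg adjustment over all genes. In double-KO cells 0 of 42 members were called, against 0.382% of all genes (0.373% higher and 0.00911% lower). There 3 members had an unadjusted p under 0.05, a count given without the share of all genes. In MyD88-KO cells 19 of 42 were called, 13 higher and 6 lower, against 35.5% of all genes (16.8% higher and 18.7% lower). In TRIF-KO-labelled cells 15 were called, 9 higher and 6 lower, against 29% of all genes (12.8% higher and 16.2% lower). In wild-type cells 16 were called, 11 higher and 5 lower, against 36.4% of all genes (16.7% higher and 19.7% lower). The share of members called was 45.2% in MyD88-KO, 35.7% in TRIF-KO-labelled and 38.1% in wild-type cells, near the share of all genes in the last of these. The median log2 ratio of the members was 0.00, 0.07, 0.13 and 0.11 in double-KO, MyD88-KO, TRIF-KO-labelled and wild-type cells, and over all genes it lay between -0.02 and 0.00. A dye term in the fit rests on the 1 array with turned dyes. It left 1 call in MyD88-KO, 1 in TRIF-KO-labelled and 2 in wild-type cells, and 844, 324 and 463 calls among all genes. With slide as a block 2, 4 and 0 members were left, and 1343, 1949 and 0 of all genes. Without the 8 h arrays 7, 6 and 11 members and 2123, 2819 and 4017 of all genes were called in MyD88-KO, TRIF-KO-labelled and wild-type cells. Without the 4 h arrays 15, 9 and 11 members and 4252, 3718 and 3845 of all genes were. In the main fit 7792, 6376 and 7988 of all genes were called, so calls among all genes fell as well.

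In all, 25 of the 42 members (59.5%) were called in at least 1 responding genotype, against 56.5% of all genes, and 17 in none. These counts and those by genotype include Slc6a19 in MyD88-KO cells and Slc1a2 in TRIF-KO-labelled and wild-type cells. Both could pass the filter only through a high LPS-treated channel, as told below, so their calls support nothing. Slc38a2, Slc3a2, Slc6a16, Slc7a1 and Slc7a5 rose in all 3 responding genotypes, and Slc43a2, Slc6a6 and Slc7a4 fell in all 3. Of all genes 5.67% rose and 8.62% fell in all 3. Among single arrays, no double-KO array had a member at or beyond a log2 ratio of 1 in either direction. The number of members at 1 or above was 0, 2, 8, 9 and 11 in MyD88-KO cells at 1, 2, 4, 8 and 16 h. It was 0, 1, 4, 4 and 7 in TRIF-KO-labelled cells, and 0, 2, 7, 8 and 11 in wild-type cells. Of all genes 0.388, 2.96, 6.67, 9.34 and 7.22% lay at 1 or above in MyD88-KO cells, 0.669, 2.63, 4.38, 6.55 and 6.02% in TRIF-KO-labelled cells and 0.835, 4.63, 8.19, 7.34 and 4.93% in wild-type cells. The number of members at -1 or below was 1, 5 and 5 at 4, 8 and 16 h in MyD88-KO cells, 4, 5 and 4 in TRIF-KO-labelled cells, and 4, 5 and 0 in wild-type cells. Of all genes 5.64, 10.4 and 6.82%, 5.51, 9.55 and 6.13%, and 8.91, 9.96 and 4.04% did in the same order. Members and all genes alike held more large ratios from 4 h on.

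**Figure D1:**
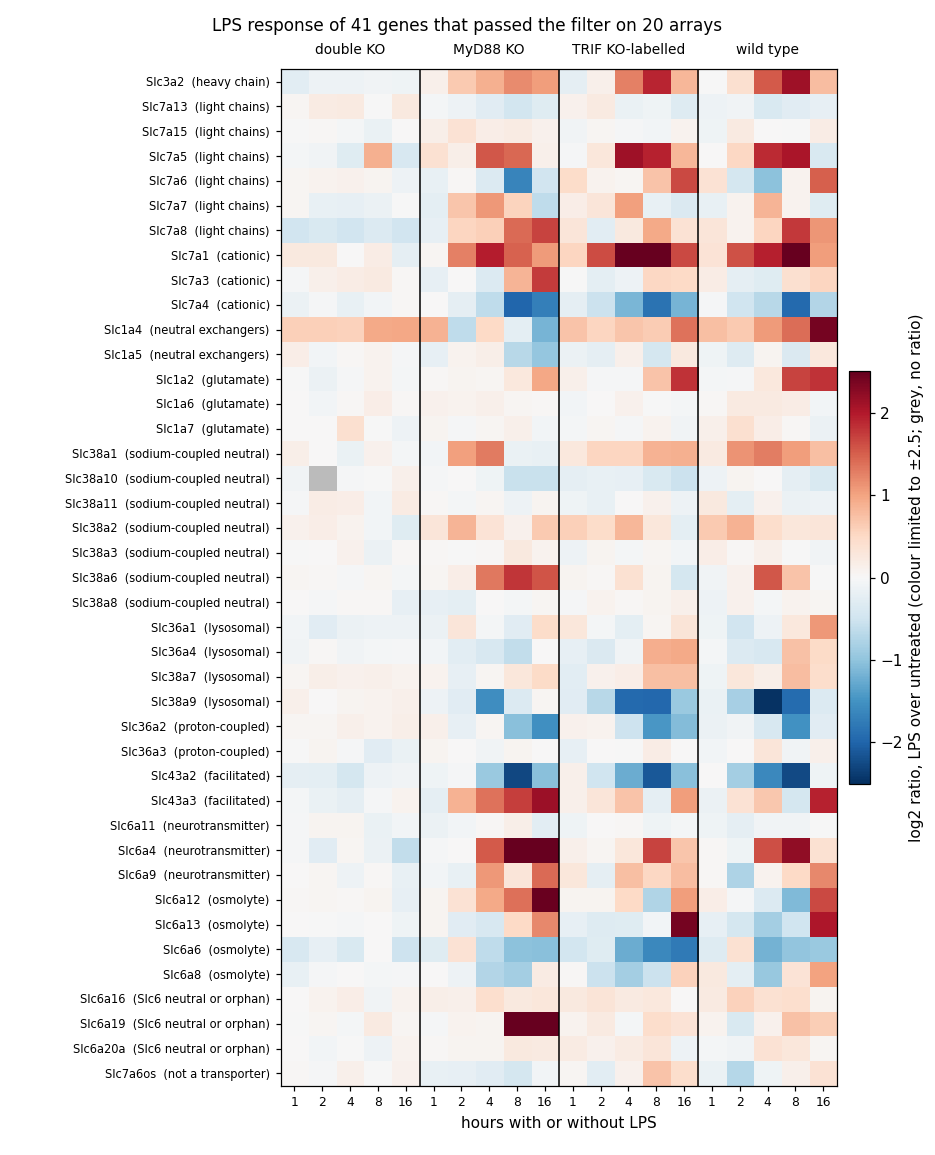
Log2 ratio of LPS over untreated cells for 41 of the 42 members that passed the filter, 1 row per gene grouped by kind of carrier and 1 column per array, in the order double-KO, MyD88-KO, TRIF-KO-labelled and wild-type, each at 1, 2, 4, 8 and 16 h. No double-KO ratio reaches 1 in either direction, the largest being Slc1a4 at 8 and 16 h (0.94 and 0.96) and Slc7a5 at 8 h (0.89), and the colour scale ends below the ratios of Slc6a19 at 8 and 16 h in MyD88-KO cells (4.01 and 4.58), which share the deepest red with a few other cells of the plot.

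The heavy chain Slc3a2 rose with LPS in each responding genotype. Its log2 ratios at 1, 2, 4, 8 and 16 h were -0.26, -0.12, -0.13, -0.09 and -0.11 in double-KO cells and 0.13, 0.66, 0.88, 1.19 and 1.04 in MyD88-KO cells. They were -0.22, 0.13, 1.26, 1.90 and 0.83 in TRIF-KO-labelled cells and -0.01, 0.41, 1.53, 2.12 and 0.78 in wild-type cells. All 5 double-KO ratios were below 0, and the responding genotypes were highest at 8 h, 4.35-fold in wild-type cells. The mean log2 ratio was 0.78 ± 0.17 (SE, adjusted p = 0.0042) in MyD88-KO, 0.78 ± 0.17 (0.0044) in TRIF-KO-labelled and 0.97 ± 0.17 (0.001) in wild-type cells.

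Slc7a5 (LAT1), the light chain that carries leucine and other large neutral amino acids, rose alongside it. Its log2 ratios were -0.05, -0.09, -0.31, 0.89 and -0.40 in double-KO cells, in time order, and 0.38, 0.14, 1.56, 1.43 and 0.12 in MyD88-KO cells. They were -0.03, 0.29, 2.12, 1.93 and 0.83 in TRIF-KO-labelled cells and 0.00, 0.52, 1.87, 2.05 and -0.38 in wild-type cells. The high arrays were those of 4 and 8 h, and the 8 h double-KO array lay above the other double-KO arrays. The mean was 0.73 ± 0.20 (adjusted p = 0.014) in MyD88-KO, 1.03 ± 0.20 (0.0024) in TRIF-KO-labelled and 0.81 ± 0.20 (0.0074) in wild-type cells, and without the 8 h arrays none of these calls held (0.55, 0.80 and 0.50, adjusted p = 0.16, 0.055 and 0.18). This probe lies at chr8:124405136-124405195 (mm9, minus strand). A second kept probe of Slc7a5, at chr8:124430996-124431055, had means of 0.04, 0.13 and 0.18 in the same genotypes, so the probes of this gene disagreed.

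Slc7a8 (LAT2), a light chain for neutral amino acids, had log2 ratios of -0.48, -0.39, -0.47, -0.35 and -0.47 in double-KO cells and -0.20, 0.54, 0.59, 1.42 and 1.69 in MyD88-KO cells. It had 0.31, -0.26, 0.25, 0.95 and 0.37 in TRIF-KO-labelled cells and 0.30, 0.09, 0.54, 1.76 and 1.10 in wild-type cells. Every double-KO array was lower than every array of the other genotypes. In MyD88-KO cells the rise of Slc7a8 was 0.81 ± 0.17 (adjusted p = 0.0031) and in wild-type cells 0.76 ± 0.17 (0.0037), with a mean of 0.33 ± 0.17 (0.16) in TRIF-KO-labelled cells and -0.43 ± 0.17 (0.51) in double-KO cells. The wild-type call was lost without the 8 h arrays (0.51, 0.071). Of the other light chains, Slc7a6 and Slc7a7, which exchange cationic for neutral amino acids, had means between -0.53 and 0.59 and were called in no genotype. Slc7a7 was highest at 4 h in each responding genotype, at 1.09, 1.02 and 0.84 in MyD88-KO, TRIF-KO-labelled and wild-type cells. Slc7a6 at 16 h read -0.48, 1.66 and 1.50 in the same order. Slc7a13, a light chain for acidic amino acids and cystine, was called lower in MyD88-KO (-0.25 ± 0.06) and wild-type cells (-0.22 ± 0.06), and the rodent gene Slc7a15 higher in MyD88-KO cells (0.20 ± 0.05), both at dim mean levels between 6.84 and 7.43 on the log2 scale, and without the 8 h arrays none of these 3 calls held (adjusted p = 0.12, 0.089 and 0.052).

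Slc7a1 (CAT1), the main carrier of arginine and lysine, gave the firmest rise of the set. Its log2 ratios were 0.25, 0.25, 0.00, 0.19 and -0.22 in double-KO cells and 0.05, 1.26, 1.97, 1.47 and 1.07 in MyD88-KO cells, in time order. They were 0.54, 1.64, 2.58, 2.53 and 1.66 in TRIF-KO-labelled cells and 0.35, 1.60, 1.95, 2.52 and 1.04 in wild-type cells. From 2 h on, every array of the responding genotypes lay above every double-KO array. The mean was 1.16 ± 0.19 (adjusted p = 0.0011) in MyD88-KO, 1.79 ± 0.19 (6.3e-05) in TRIF-KO-labelled and 1.49 ± 0.19 (0.00013) in wild-type cells. These calls held with the dye term as well, at 1.19 ± 0.26 (0.027), 1.82 ± 0.35 (0.025) and 1.53 ± 0.35 (0.04).

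Its relative Slc7a4, whose own transport is not settled, went the other way. Its ratios were -0.14, -0.02, -0.18, -0.07 and 0.03 in double-KO cells and 0.00, -0.22, -0.63, -1.99 and -1.70 in MyD88-KO cells. They were -0.22, -0.54, -1.14, -1.85 and -1.17 in TRIF-KO-labelled cells and -0.03, -0.49, -0.69, -1.95 and -0.73 in wild-type cells. The lowest array of each responding genotype was that of 8 h. Slc7a4 fell by 0.91 ± 0.18 (adjusted p = 0.0027) in MyD88-KO, 0.98 ± 0.18 (0.0016) in TRIF-KO-labelled and 0.78 ± 0.18 (0.005) in wild-type cells, and the wild-type call was lost without the 8 h arrays (-0.49, 0.064). A second probe of the same transcript was well above background on 0 arrays and did not pass the filter. Its means were -0.02, -0.04 and 0.06 in the same order, so the values of Slc7a4 rest on 1 probe. The third kept member of this kind, the arginine and lysine carrier Slc7a3, had means of 0.41, 0.12 and 0.12 in the same order and was not called. Its highest ratio was 1.74, in MyD88-KO cells at 16 h.

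The promoters of the heavy chain and of the arginine carrier are shown because both genes rose in the 3 responding genotypes. They are RefSeq windows of GRCm38.p6 from 250 bases before the transcript start to 30 after it, written 5′ to 3′ on the gene's strand, with each GC box (GGGCGG on either strand) in capitals. The Slc3a2 window is chr19:8713868-8714147 and the Slc7a1 window chr5:148399875-148400154, both on the minus strand.
Slc3a2: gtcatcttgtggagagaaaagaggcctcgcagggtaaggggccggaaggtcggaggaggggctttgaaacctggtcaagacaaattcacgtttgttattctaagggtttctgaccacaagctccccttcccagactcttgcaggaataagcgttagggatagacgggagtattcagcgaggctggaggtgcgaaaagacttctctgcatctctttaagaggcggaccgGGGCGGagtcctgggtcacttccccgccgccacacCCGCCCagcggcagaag
Slc7a1: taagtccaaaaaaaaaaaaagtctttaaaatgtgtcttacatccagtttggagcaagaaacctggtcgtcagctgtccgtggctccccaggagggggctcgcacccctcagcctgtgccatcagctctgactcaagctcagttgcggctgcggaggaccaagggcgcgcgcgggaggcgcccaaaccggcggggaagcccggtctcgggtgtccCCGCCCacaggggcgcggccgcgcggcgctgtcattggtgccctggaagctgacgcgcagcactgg
In Slc3a2 the GC boxes start at -22 and +14, and in Slc7a1 at -36. Slc7a1 has 2 windows, and the one printed was chosen because it holds a GC box, which the other does not. A GC box was found in 25 of the 46 windows of kept members and in 35.7% of all 32851 windows, searched from 250 bases before to 50 after the start. The core of the amino acid response element, TGATGNAA on either strand, was in 3 of the 46 windows and in 3.97% of all windows, and in neither of those printed. The E-box CACGTG was in 5 of the 46 windows and 7.15% of all windows. Windows were given for 30 of the 42 kept members, and a match is a description of these letters.

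**Figure D2:**
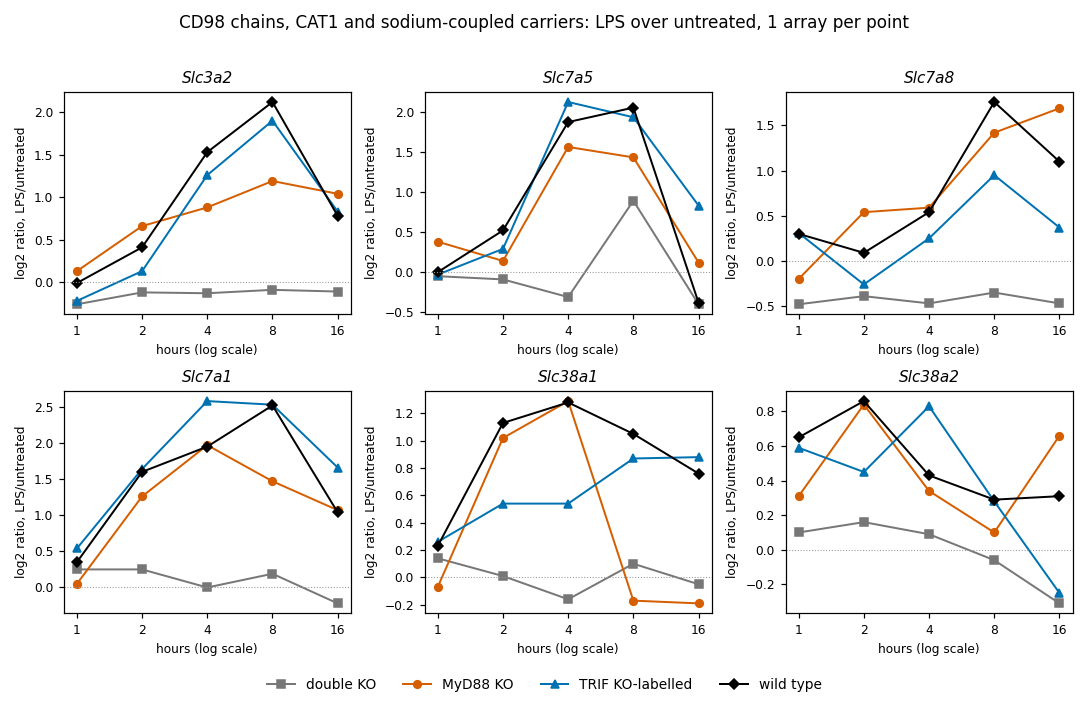
Log2 ratio of LPS over untreated cells against hours of LPS (log axis) for Slc3a2, Slc7a5, Slc7a8, Slc7a1, Slc38a1 and Slc38a2, with 1 line per genotype and 1 array per point. Slc7a1 reaches 2.58 in TRIF-KO-labelled and 2.52 in wild-type cells, while its double-KO points lie between -0.22 and 0.25.

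Of the exchangers of small neutral amino acids, Slc1a4 (ASCT1) had log2 ratios of 0.59, 0.59, 0.58, 0.94 and 0.96 in double-KO cells and 0.87, -0.63, 0.49, -0.25 and -1.16 in MyD88-KO cells. It had 0.72, 0.54, 0.69, 0.63 and 1.36 in TRIF-KO-labelled cells and 0.76, 0.65, 1.06, 1.40 and 2.40 in wild-type cells. The double-KO ratios were all above 0. The arrays below 0 were those of MyD88-KO cells at 2 h, the array with the opposite dyes, and at 8 and 16 h. The mean ratio of Slc1a4 was called in TRIF-KO-labelled cells, at 0.79 ± 0.25 (adjusted p = 0.031), and in wild-type cells, at 1.25 ± 0.25 (0.0021). The TRIF-KO-labelled call was lost without the 2, 4 or 8 h arrays (0.81 to 0.85, adjusted p = 0.066 to 0.10). With a dye term the means were 0.68 ± 0.46 (0.44) and 1.15 ± 0.46 (0.19). The means were 0.73 ± 0.25 (0.35) in double-KO and -0.14 ± 0.25 (0.70) in MyD88-KO cells. The TRIF-KO-labelled mean was thus near that of double-KO cells, and Slc1a4 was called in no double-KO difference. Its ratios in TRIF-KO-labelled and wild-type cells are not shown to differ from those of cells without either adapter.

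Slc1a5 (ASCT2), the glutamine exchanger, was called in no genotype. Its ratios were 0.17, -0.06, 0.03, 0.08 and -0.03 in double-KO cells and -0.21, 0.09, 0.14, -0.69 and -0.97 in MyD88-KO cells. They were -0.14, -0.23, 0.12, -0.44 and 0.24 in TRIF-KO-labelled cells and -0.10, -0.32, 0.07, -0.36 and 0.27 in wild-type cells. The MyD88-KO arrays of 8 and 16 h were the lowest of the 20, with a mean over the genotype of -0.33 ± 0.13 (adjusted p = 0.067), and its second kept probe had a mean of -0.64 there.

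Of the 7 sodium-coupled carriers that passed, Slc38a2 (SNAT2), a neutral amino acid carrier known to be induced when amino acids are scarce, rose in all 3 responding genotypes. Its ratios were 0.10, 0.16, 0.09, -0.06 and -0.31 in double-KO cells and 0.31, 0.84, 0.34, 0.10 and 0.66 in MyD88-KO cells. They were 0.59, 0.45, 0.83, 0.28 and -0.25 in TRIF-KO-labelled cells and 0.65, 0.86, 0.43, 0.29 and 0.31 in wild-type cells. All responding arrays of 1 and 2 h were above 0, and the one array below 0 among these genotypes was TRIF-KO-labelled at 16 h. The mean was 0.45 ± 0.11 (adjusted p = 0.0064) in MyD88-KO, 0.38 ± 0.11 (0.017) in TRIF-KO-labelled and 0.51 ± 0.11 (0.0029) in wild-type cells, and the TRIF-KO-labelled call was lost without any 1 of the 1, 2, 4 and 8 h arrays (0.27 to 0.40, adjusted p = 0.058 to 0.13).

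Slc38a1 (SNAT1), a glutamine and alanine carrier whose gene is next to Slc38a2 on chromosome 15, 43954 bases away, had ratios of 0.14, 0.01, -0.16, 0.10 and -0.05 in double-KO cells. In MyD88-KO cells they were -0.07, 1.02, 1.29, -0.17 and -0.19, in TRIF-KO-labelled cells 0.26, 0.54, 0.54, 0.87 and 0.88, and in wild-type cells 0.23, 1.13, 1.28, 1.05 and 0.76. The MyD88-KO ratios were high at 2 and 4 h only. Slc38a1 rose by 0.62 ± 0.18 (adjusted p = 0.018) in TRIF-KO-labelled and 0.89 ± 0.18 (0.0019) in wild-type cells, and its mean in MyD88-KO cells was 0.38 ± 0.18 (0.11). These are the highest of its 3 kept probes, whose means ran from 0.26 to 0.62 in TRIF-KO-labelled and from 0.40 to 0.89 in wild-type cells. The TRIF-KO-labelled call was lost without the 8 h or the 16 h arrays (0.55 each, adjusted p = 0.085 and 0.064).

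Slc38a6, another member of that family, had ratios of 0.05, 0.02, -0.02, 0.05 and -0.05 in double-KO cells and 0.05, 0.16, 1.32, 1.79 and 1.57 in MyD88-KO cells. It had 0.07, 0.02, 0.38, 0.07 and -0.44 in TRIF-KO-labelled cells and -0.08, 0.11, 1.56, 0.71 and -0.01 in wild-type cells. The rise was called in MyD88-KO cells, at 0.98 ± 0.21 (adjusted p = 0.0033), and not in wild-type cells, at 0.46 ± 0.21 (0.096), and without the 8 h arrays the MyD88-KO mean was 0.78 (0.058). The difference between these genotypes was not called. By the other kept probe of Slc38a6, the MyD88-KO mean was 0.47, the TRIF-KO-labelled mean 0.20 and the wild-type mean 0.29. The size of the MyD88-KO rise thus depended on the probe. All other values of Slc38a6 given here, its slope and untreated levels among them, rest on the brighter probe alone. Slc38a10 fell slightly in MyD88-KO (-0.25 ± 0.07) and TRIF-KO-labelled cells (-0.30 ± 0.07), calls lost without the 8 h arrays (-0.17 and -0.28, adjusted p = 0.19 and 0.05), and it had no ratio on the double-KO array of 2 h. Slc38a3, Slc38a8 and Slc38a11 had means between -0.09 and 0.09.

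Of the 4 lysosomal carriers, Slc38a9, the arginine sensor of mTORC1, had ratios of 0.12, 0.00, 0.07, 0.08 and 0.12 in double-KO cells and -0.13, -0.29, -1.56, -0.35 and 0.04 in MyD88-KO cells. It had -0.28, -0.69, -1.94, -1.96 and -0.92 in TRIF-KO-labelled cells and -0.17, -0.83, -2.47, -1.93 and -0.34 in wild-type cells. Each responding genotype was low at 4 h, where the LPS level in wild-type cells was 0.181 times the untreated level, and the 8 h ratio of MyD88-KO cells stood well above those of the other 2 genotypes. Slc38a9 fell by 1.16 ± 0.20 (adjusted p = 0.0012) in TRIF-KO-labelled and 1.15 ± 0.20 (0.00092) in wild-type cells, and its mean was -0.46 ± 0.20 (0.09) in MyD88-KO cells. All 3 kept probes of the gene, the brightest at chr13:113523042-113523101 (mm9, plus strand), had means below 0 in these genotypes, from -1.15 to -0.56 in wild-type cells.

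Slc38a7 (SNAT7), a lysosomal exporter of glutamine and asparagine, rose by 0.31 ± 0.10 in both TRIF-KO-labelled (adjusted p = 0.03) and wild-type cells (0.023), with a mean of 0.14 ± 0.10 in MyD88-KO cells. Without the 8 h arrays both values were 0.19 and not called (0.25 and 0.21). The TRIF-KO-labelled call was also lost without the 4 or 16 h arrays (adjusted p = 0.074 and 0.21), and the wild-type call without the 2, 4 or 16 h arrays (0.053 to 0.065). Slc36a1 (PAT1), a proton-coupled exporter of small amino acids, and Slc36a4 (PAT4) were not called, with means between -0.27 and 0.24. Slc36a2, a proton-coupled carrier of glycine, proline and alanine, had ratios of 0.05, 0.04, 0.13, 0.08 and 0.15 in double-KO cells and 0.12, -0.20, 0.05, -1.04 and -1.54 in MyD88-KO cells. It had 0.10, 0.09, -0.52, -1.46 and -1.09 in TRIF-KO-labelled cells and -0.15, -0.09, -0.41, -1.51 and -0.28 in wild-type cells. Its lowest array was that of 16 h in MyD88-KO cells and of 8 h in TRIF-KO-labelled and wild-type cells. The means were -0.52 ± 0.18 (adjusted p = 0.039), -0.57 ± 0.18 (0.031) and -0.49 ± 0.18 (0.051) in MyD88-KO, TRIF-KO-labelled and wild-type cells, so the wild-type value just missed the threshold. Both calls were lost without the 4, 8 or 16 h arrays (-0.66 to -0.27 and -0.59 to -0.35). Its neighbour Slc36a3 had means between -0.08 and 0.06.

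The Slc38a9 promoter is shown because that gene had the largest mean fall among the members in wild-type cells. Its window is chr13:112660516-112660795 (GRCm38.p6, RefSeq, plus strand), with the GC box at -149 in capitals.
Slc38a9: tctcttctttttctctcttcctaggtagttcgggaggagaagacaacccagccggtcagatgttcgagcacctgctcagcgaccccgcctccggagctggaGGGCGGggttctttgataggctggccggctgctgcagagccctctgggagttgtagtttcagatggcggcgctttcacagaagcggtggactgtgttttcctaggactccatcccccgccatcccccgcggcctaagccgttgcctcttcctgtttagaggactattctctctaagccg
The window held none of the amino acid response element core, the NF-kB consensus and the E-box in these letters.

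Of the facilitated carriers, Slc43a2 (LAT4), which lets large neutral amino acids pass without coupling, fell in all 3 responding genotypes. Its ratios were -0.23, -0.24, -0.43, -0.12 and -0.09 in double-KO cells and -0.11, -0.03, -0.92, -2.27 and -1.04 in MyD88-KO cells. They were 0.13, -0.49, -1.24, -2.12 and -1.05 in TRIF-KO-labelled cells and 0.00, -0.85, -1.62, -2.26 and -0.11 in wild-type cells. All 3 were lowest at 8 h and close to each other there. Slc43a2 fell by 0.87 ± 0.22 (adjusted p = 0.0088) in MyD88-KO, 0.95 ± 0.22 (0.0062) in TRIF-KO-labelled and 0.97 ± 0.22 (0.0047) in wild-type cells. The MyD88-KO call was lost without the 8 h arrays (-0.52, 0.10) and the wild-type call without the 4 h arrays (-0.80, 0.062).

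Slc43a3, which is known as a carrier of purine nucleobases, had ratios of -0.04, -0.16, -0.23, -0.03 and 0.08 in double-KO cells and -0.22, 0.86, 1.35, 1.73 and 2.13 in MyD88-KO cells. It had 0.13, 0.31, 0.71, -0.23 and 1.05 in TRIF-KO-labelled cells and -0.15, 0.37, 0.68, -0.43 and 1.92 in wild-type cells. In MyD88-KO cells each later array was higher than the one before, whereas the 8 h arrays of the other 2 genotypes were below 0. The mean was 1.17 ± 0.22 (adjusted p = 0.0022) in MyD88-KO, 0.39 ± 0.22 (0.20) in TRIF-KO-labelled and 0.48 ± 0.22 (0.11) in wild-type cells.

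**Figure D3:**
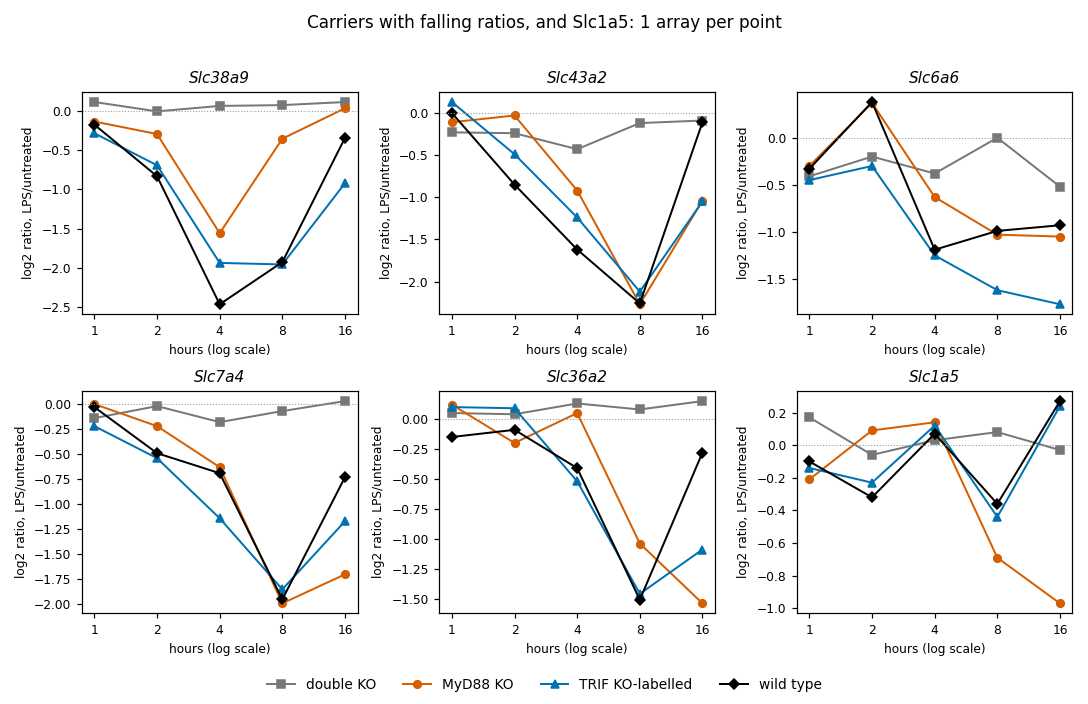
Log2 ratio of LPS over untreated cells against hours of LPS (log axis) for Slc38a9, Slc43a2, Slc6a6, Slc7a4, Slc36a2 and Slc1a5, with 1 line per genotype and 1 array per point. Slc38a9 is lowest at 4 h in wild-type cells (-2.47) and Slc43a2 at 8 h in the 3 responding genotypes (-2.27 to -2.12).

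Among the carriers of osmolytes, the taurine carrier Slc6a6 fell in all 3 responding genotypes. Its ratios were -0.41, -0.20, -0.38, 0.00 and -0.52 in double-KO cells and -0.30, 0.37, -0.63, -1.03 and -1.05 in MyD88-KO cells. They were -0.45, -0.30, -1.25, -1.62 and -1.77 in TRIF-KO-labelled cells and -0.33, 0.38, -1.19, -0.99 and -0.93 in wild-type cells. At each of the 5 times the TRIF-KO-labelled array was the lowest of the 4 genotypes, and at 2 h the MyD88-KO and wild-type arrays were above 0. Slc6a6 fell by 0.53 ± 0.15 (adjusted p = 0.014) in MyD88-KO, 1.08 ± 0.15 (0.00031) in TRIF-KO-labelled and 0.61 ± 0.15 (0.0063) in wild-type cells, and the first and last of these calls were lost without the 4 h arrays (-0.51 and -0.47, 0.063 and 0.085). The MyD88-KO call was also lost without the 8 h or the 16 h arrays (-0.40 each). The creatine carrier Slc6a8 had means between -0.30 and 0.08 and was not called.

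Slc6a12, a betaine and GABA carrier, had ratios of 0.03, 0.05, 0.03, 0.06 and -0.21 in double-KO cells and 0.06, 0.36, 0.94, 1.38 and 2.47 in MyD88-KO cells. It had 0.06, 0.07, 0.49, -0.76 and 1.04 in TRIF-KO-labelled cells and 0.16, -0.02, -0.35, -1.11 and 1.66 in wild-type cells. At 8 h the MyD88-KO array was above 0 and the TRIF-KO-labelled and wild-type arrays below it, and at 16 h all 3 were above 0. The mean was 1.04 ± 0.27 (adjusted p = 0.0086) in MyD88-KO, 0.18 ± 0.27 (0.66) in TRIF-KO-labelled and 0.07 ± 0.27 (0.87) in wild-type cells, and without the 16 h arrays the MyD88-KO call was lost (0.69, 0.056). Slc6a13, a GABA and taurine carrier, lies 4853 bases from Slc6a12 on chromosome 6. Its ratios at 16 h were -0.10, 1.20, 2.40 and 2.03 in double-KO, MyD88-KO, TRIF-KO-labelled and wild-type cells, and those of the earlier times lay between -0.84 and 0.50, so its mean over times was called in no genotype.

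The promoters of this neighbouring pair were picked because each holds an NF-kB consensus, and whether NF-kB acts on either gene was not tested. The windows are chr6:121342324-121342603 for Slc6a12 and chr6:121303389-121303668 for Slc6a13 (GRCm38.p6, RefSeq, plus strand), with the consensus in capitals.
Slc6a12: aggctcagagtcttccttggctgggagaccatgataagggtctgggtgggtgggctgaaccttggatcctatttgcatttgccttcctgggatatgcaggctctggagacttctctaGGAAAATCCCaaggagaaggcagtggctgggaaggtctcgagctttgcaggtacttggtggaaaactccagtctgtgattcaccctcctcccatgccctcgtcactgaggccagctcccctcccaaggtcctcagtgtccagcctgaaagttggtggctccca
Slc6a13: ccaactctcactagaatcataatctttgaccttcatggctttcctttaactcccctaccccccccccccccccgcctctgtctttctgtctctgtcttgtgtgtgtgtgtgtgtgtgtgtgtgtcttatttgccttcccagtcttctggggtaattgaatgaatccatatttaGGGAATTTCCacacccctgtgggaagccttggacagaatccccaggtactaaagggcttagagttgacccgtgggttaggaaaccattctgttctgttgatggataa
The match starts at -133 in Slc6a12, in 1 of its 5 windows, and at -77 in Slc6a13, in 1 of its 3 windows. The consensus, searched on both strands, was in 7 of the 46 windows of kept members and in 8.46% of all windows. The other kept members with a match were Slc1a6, Slc36a4 and Slc7a7, whose mean ratios were called in no genotype, and Slc43a2, which fell.

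Slc6a19, the neutral amino acid carrier of kidney and gut, gave the largest ratios of any member. They were -0.01, 0.05, -0.04, 0.22 and 0.04 in double-KO cells and -0.03, 0.09, 0.07, 4.01 and 4.58 in MyD88-KO cells. They were 0.09, 0.23, -0.05, 0.43 and 0.34 in TRIF-KO-labelled cells and 0.08, -0.38, 0.11, 0.74 and 0.61 in wild-type cells. Only the MyD88-KO arrays of 8 and 16 h were far above 0. There the LPS log2 level was 10.95 and 11.78, and the untreated level was well above background only at 16 h. Slc6a19 was therefore at least 16.1-fold higher with LPS at 8 h and 23.8-fold higher at 16 h in MyD88-KO cells, against at least 1.55-fold and 1.45-fold at the same times in wild-type cells. Such a bound sets the LPS level against the higher of the probe's own untreated value and the lowest untreated value well above background on that array. Slc6a19 passed the filter on 6 arrays, 5 of them with the LPS-treated channel above background, so its tests rest on ratios to a level that was mostly not above background. Its untreated channel was above background on 1 double-KO and 1 MyD88-KO array, too few to pass. It could thus enter the fit only through arrays with a high LPS-treated channel. Its mean and slope in MyD88-KO cells are given as a description, and the calls that the fit made of them support nothing. The mean was 1.74 ± 0.44 (adjusted p = 0.0085) in MyD88-KO cells, a call lost without the 8 h or the 16 h arrays (1.18 and 1.04, 0.12 and 0.079), and 0.23 ± 0.44 (0.72) in wild-type cells.

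The serotonin carrier Slc6a4 had ratios of -0.02, -0.28, 0.05, -0.15 and -0.62 in double-KO cells and -0.03, 0.01, 1.54, 3.53 and 3.24 in MyD88-KO cells. It had 0.12, 0.04, 0.28, 1.69 and 0.69 in TRIF-KO-labelled cells and 0.03, -0.11, 1.62, 2.21 and 0.38 in wild-type cells. The 3 responding genotypes peaked at 8 h, and the MyD88-KO array of 16 h stayed high. The mean was 1.66 ± 0.34 (adjusted p = 0.0031) in MyD88-KO, 0.56 ± 0.34 (0.24) in TRIF-KO-labelled and 0.82 ± 0.34 (0.074) in wild-type cells, and without the 8 h arrays the MyD88-KO call was lost (1.19, 0.062). Its untreated level was not well above background on several of these arrays, where the rise was at least 2.91-fold at 4 h in MyD88-KO and at least 3.25-fold at 8 h in TRIF-KO-labelled cells.

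Of the other Slc6 carriers, the glycine carrier Slc6a9 rose by 0.51 ± 0.18 (adjusted p = 0.034) in MyD88-KO cells, with means of 0.42 ± 0.18 (0.088) in TRIF-KO-labelled and 0.21 ± 0.18 (0.37) in wild-type cells. Its MyD88-KO call was lost without the 4, 8 or 16 h arrays (0.29 to 0.56). The orphan member Slc6a16 rose by 0.24 ± 0.06, 0.21 ± 0.06 and 0.33 ± 0.06 in MyD88-KO, TRIF-KO-labelled and wild-type cells, above 0 on every array of these genotypes, and without the 4 h or the 8 h arrays only the wild-type call held. Slc6a11 and Slc6a20a had means between -0.10 and 0.14 and were not called.

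Of the acidic amino acid carriers, Slc1a2 (GLT-1), a glutamate carrier best known from glia, had ratios of -0.01, -0.14, -0.02, 0.08 and -0.04 in double-KO cells and 0.02, 0.07, 0.04, 0.26 and 0.96 in MyD88-KO cells. It had 0.13, -0.03, -0.02, 0.71 and 1.81 in TRIF-KO-labelled cells and -0.05, -0.02, 0.26, 1.69 and 1.80 in wild-type cells. The high arrays were late ones. On none of the arrays of the 3 responding genotypes was its untreated level well above background, and the rise at 16 h was at least 1.91-fold, 3.53-fold and 3.48-fold in MyD88-KO, TRIF-KO-labelled and wild-type cells. Slc1a2 passed the filter through 5 arrays, each by its LPS-treated channel alone, so it could enter the fit only where it was high. Its mean log2 ratios of 0.27, 0.52 and 0.74 in the same order are given as a description, and the calls that the fit made of the last 2 support nothing. Slc1a6 and Slc1a7, glutamate carriers of Purkinje cells and retina, had means between -0.01 and 0.12.

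**Figure D4:**
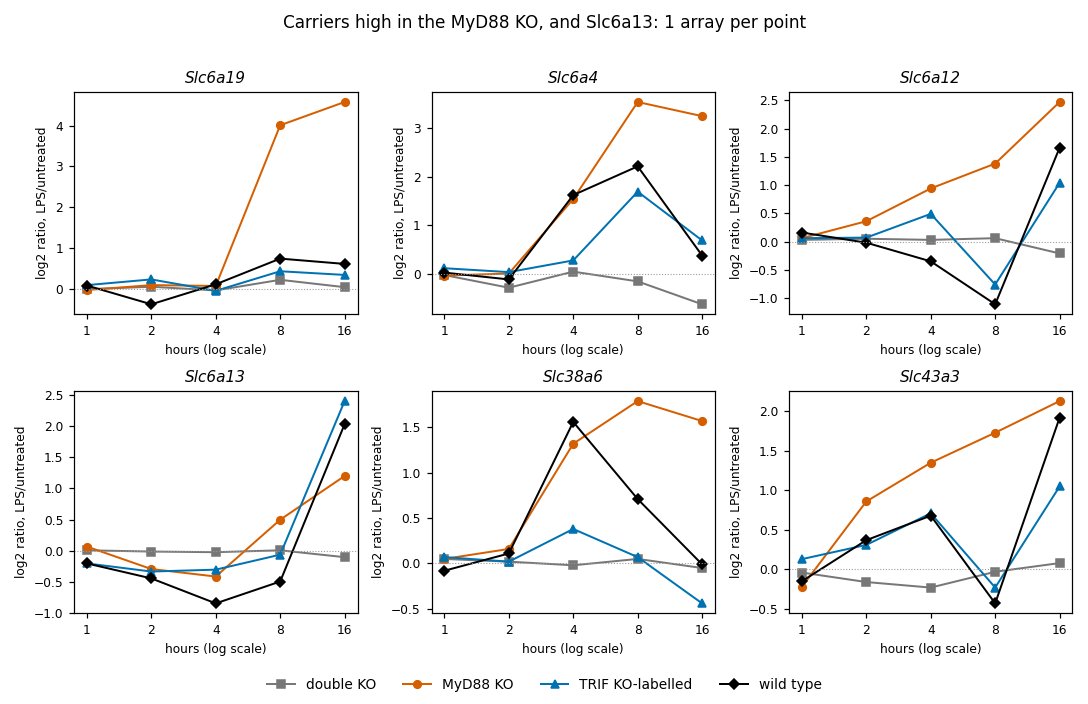
Log2 ratio of LPS over untreated cells against hours of LPS (log axis) for Slc6a19, Slc6a4, Slc6a12, Slc6a13, Slc38a6 and Slc43a3, with 1 line per genotype and 1 array per point. Slc6a19 stands at 4.01 and 4.58 in MyD88-KO cells at 8 and 16 h, and Slc6a13 is high at 16 h in TRIF-KO-labelled (2.40) and wild-type cells (2.03).

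The differences between genotypes were tested on the same ratios. Double-KO minus wild-type called 7 of 42 members, 2 higher and 5 lower, against 12% of all genes (6.1% higher and 5.94% lower). Double-KO minus TRIF-KO-labelled called 6, of them 3 higher and 3 lower, against 6.66% of all genes (3.08% and 3.58%). Double-KO minus MyD88-KO called 8, of them 1 higher and 7 lower, against 10.1% of all genes (4.35% and 5.73%). These 3 comparisons share the double-KO arrays. Slc7a1 differed by -1.40 ± 0.27 (adjusted p = 0.0083) from wild-type, -1.70 ± 0.27 (0.0048) from TRIF-KO-labelled and -1.07 ± 0.27 (0.031) from MyD88-KO. Slc3a2 differed by -1.11 ± 0.24 (0.014), -0.92 ± 0.24 (0.039) and -0.92 ± 0.24 (0.036) in the same order. These 2 were the members called in all 3 comparisons.

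Slc7a8 was lower in the double-KO response by 1.19 and 1.24 log2 units than in wild-type and MyD88-KO cells (differences of -1.19 ± 0.24 and -1.24 ± 0.24, adjusted p = 0.0093 and 0.012). Slc38a9, which fell with LPS elsewhere, differed by 1.23 ± 0.28 from both wild-type (0.017) and TRIF-KO-labelled cells (0.023). Slc38a1 (-0.88) and Slc38a2 (-0.51) were called against wild-type, Slc7a5 (-1.02), Slc6a6 (0.77) and Slc7a4 (0.91) against TRIF-KO-labelled, and Slc6a4 (-1.86), Slc43a3 (-1.24), Slc38a6 (-0.97) and Slc7a15 (-0.24) against MyD88-KO cells. Slc7a13 was called against wild-type (0.36) and MyD88-KO (0.39). In a fit without time point as a block none of these differences was called, and none was without the 4 h arrays or without the 8 h arrays. Without the 2 h arrays 3 were called against wild-type, 2 against TRIF-KO-labelled and 3 against MyD88-KO cells, and without the 16 h arrays 8, 1 and 0 in the same order. Of all genes 868, 529 and 1201 were called without the 2 h arrays and 2660, 262 and 209 without the 16 h arrays. Without the double-KO array of 8 h, 3 were called against wild-type, 1 against TRIF-KO-labelled and 0 against MyD88-KO cells, and within the second scan day, at 4 to 16 h, 8 were called against MyD88-KO. Of all genes 752, 243 and 202 were called without that array, and 3699 within that scan day.

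No difference among the 3 responding genotypes was called by limma, and 0% of all genes were. MyD88-KO minus wild-type had 5 members with an unadjusted p under 0.05, TRIF-KO-labelled minus wild-type 1, and MyD88-KO minus TRIF-KO-labelled 13. The share of all genes at that unadjusted threshold is not given here, so these counts are no result about the members. Against wild-type the 5 were Slc1a4 (-1.39 ± 0.36, adjusted p = 0.16), Slc6a19 (1.51 ± 0.63, 0.30), Slc6a12 (0.98 ± 0.38, 0.28), Slc38a9 (0.69 ± 0.28, 0.30) and Slc43a3 (0.69 ± 0.31, 0.33). Without the 1 h arrays 142 genes were called for MyD88-KO minus wild-type and 623 for MyD88-KO minus TRIF-KO-labelled, and 0 members in either. The calls listed above for MyD88-KO cells alone are not shown to be particular to them.

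The slope of the log2 ratio over log2 hours asks which responses grew or faded over the 16 h. In double-KO cells 0 members were called, with 0 at an unadjusted p under 0.05, against 0% of all genes. In MyD88-KO cells 9 were called, 6 upward and 3 downward, against 10.3% of all genes (5.52% upward and 4.78% downward). In TRIF-KO-labelled cells 3 were called, all upward, against 7.05% of all genes (3.31% and 3.75%), and in wild-type cells 1, also upward, against 5.51% (2.92% and 2.59%). The steepest was Slc6a19 in MyD88-KO cells, at 1.31 ± 0.19 per doubling of time (adjusted p = 0.00095), followed by Slc6a4 at 1.01 (0.0077). The Slc6a19 slope is a description, since that gene would not have passed the filter on its untreated channel. Slc43a3 (0.56), Slc7a8 (0.47), Slc7a3 (0.47) and Slc38a6 (0.47) also climbed, and Slc7a4 (-0.52), Slc36a2 (-0.41) and Slc38a10 (-0.16) declined. A ratio also climbs as its untreated level declines. The untreated levels of Slc43a3 and Slc7a8 did decline, by the slope shared by the genotypes that is given below. In TRIF-KO-labelled cells the ratios of the lysosomal carriers Slc36a4 (0.36 ± 0.09) and Slc38a7 (0.27 ± 0.06) climbed. The Slc36a4 call was lost without the 2, 8 or 16 h arrays and the Slc38a7 call without the 1 or 2 h arrays (adjusted p = 0.057 to 0.19). In these cells the LPS level of Slc36a4 averaged 9.40 ± 0.17 and its untreated level 9.16 ± 0.53 (SD, n = 5 each), so the untreated channel moved more. The third call in TRIF-KO-labelled cells and the 1 call in wild-type cells were Slc1a2, whose ratios stand on an untreated level never above background, and they support nothing. Without the 1, 2 or 4 h arrays 4, 3 and 5 MyD88-KO slopes were called, that of Slc6a19 among them each time. The MyD88-KO arrays of 1 and 2 h were scanned on the first day and those of 4 to 16 h on the second, so slope and scan day overlap there. With scan day as a block none of the 9 slopes was called (Slc6a19 at 1.83 ± 0.36, adjusted p = 0.067), nor was any with slide as a block.

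Genotypes were compared before LPS as well. These tests use untreated log2 levels in the Cy3 channel of 19 arrays. Double-KO minus wild-type called 11 members, 3 higher and 8 lower, against 26.1% of all genes (15.5% higher and 10.6% lower), so the share of members called, 26.2%, was that of all genes. MyD88-KO minus wild-type called 6, of them 4 higher and 2 lower, against 10% of all genes (6.36% and 3.66%), and TRIF-KO-labelled minus wild-type 1, which was higher, against 0.437% (0.214% and 0.223%). These comparisons share the wild-type arrays. Double-KO arrays were scanned on the second day and wild-type arrays on the first, so the scan day and this comparison cannot be told apart beyond the MyD88-KO arrays that span both. With scan day as a block 3 double-KO differences were called, and without time point as a block 5. The MyD88-KO differences were called 0 times in either of these fits and 1 time without the 8 h arrays.

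Slc6a12 had untreated log2 levels of 9.99, 9.64, 10.38, 10.92 and 10.67 in double-KO cells, in time order, against 11.11, 11.42, 12.16, 12.97 and 12.85 in wild-type cells. The genotypes did not overlap, with a difference of -1.79 ± 0.13 (adjusted p = 3.6e-07), and MyD88-KO cells differed from wild-type by -0.67 (0.011). Its neighbour Slc6a13 had 8.72, 8.45, 8.13, 8.02 and 8.26 in double-KO cells, against 9.65, 9.72, 9.14, 9.26 and 10.18 in wild-type cells, also with no overlap (-1.27 ± 0.15, 3.5e-05). Slc38a6 had 10.68, 10.67, 10.67, 10.93 and 11.21 in double-KO cells, against 11.41, 11.56, 11.37, 12.39 and 12.85 in wild-type cells. Every double-KO level of Slc38a6 was below every wild-type level (-1.09 ± 0.18, 0.00055).

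Slc6a9 had 8.57, 9.11, 11.06, 10.88 and 11.53 in double-KO cells, against 8.41, 10.13, 13.32, 12.71 and 12.90 in wild-type cells, lower in double-KO from 2 h on (-1.26 ± 0.30, adjusted p = 0.0061), a call lost without the 4 h arrays (-1.01, 0.061). Slc7a1 had 12.03, 12.90, 13.63, 12.32 and 13.54 in double-KO cells, against 11.72, 13.73, 15.34, 13.98 and 14.17 in wild-type cells (-0.91 ± 0.29, 0.034). At 1 h its double-KO level was the higher one, and the call was lost when the 2, 4, 8 or 16 h arrays were left out. Slc3a2 averaged 13.96 ± 0.34 in double-KO and 14.51 ± 0.38 in wild-type cells (SD, n = 5 each; difference -0.56, adjusted p = 0.0035). Slc7a7 (-0.66) and Slc38a7 (-0.50) were also lower in double-KO cells.

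Higher in double-KO cells were Slc7a4, Slc36a2 and Slc1a4. Slc7a4 had 11.61, 11.49, 11.57, 11.45 and 10.78, against 10.10, 10.88, 10.42, 10.36 and 9.76 in wild-type cells (1.08 ± 0.16, adjusted p = 0.00017). Slc36a2 had 11.88, 11.25, 11.03, 10.34 and 8.72, against 10.58, 10.54, 10.00, 9.05 and 7.93 (1.02 ± 0.11, 1e-05), above wild-type at each of the 5 times. Slc1a4 averaged 15.90 ± 0.49 in double-KO and 15.22 ± 0.54 in wild-type cells (SD, n = 5 each; difference 0.68 ± 0.22, adjusted p = 0.037), a call lost without the 2, 4, 8 or 16 h arrays (0.59 to 0.76, adjusted p = 0.056 to 0.13). Slc36a2 was also higher in MyD88-KO (0.68, 0.0031) and TRIF-KO-labelled cells (0.75, 0.0036), the single member called against wild-type in TRIF-KO-labelled cells, a call lost without the 4 h arrays (0.69, 0.11). MyD88-KO cells had higher Slc7a4 (0.81), Slc43a2 (0.47) and Slc36a4 (0.35) and lower Slc38a7 (-0.47) than wild-type cells. The summed log2 level of 8 neutrophil markers was 16.69 to 17.04 in untreated MyD88-KO cells, against 15.18 to 15.71 in wild-type cells, and its part in these values was not tested.

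**Figure D5:**
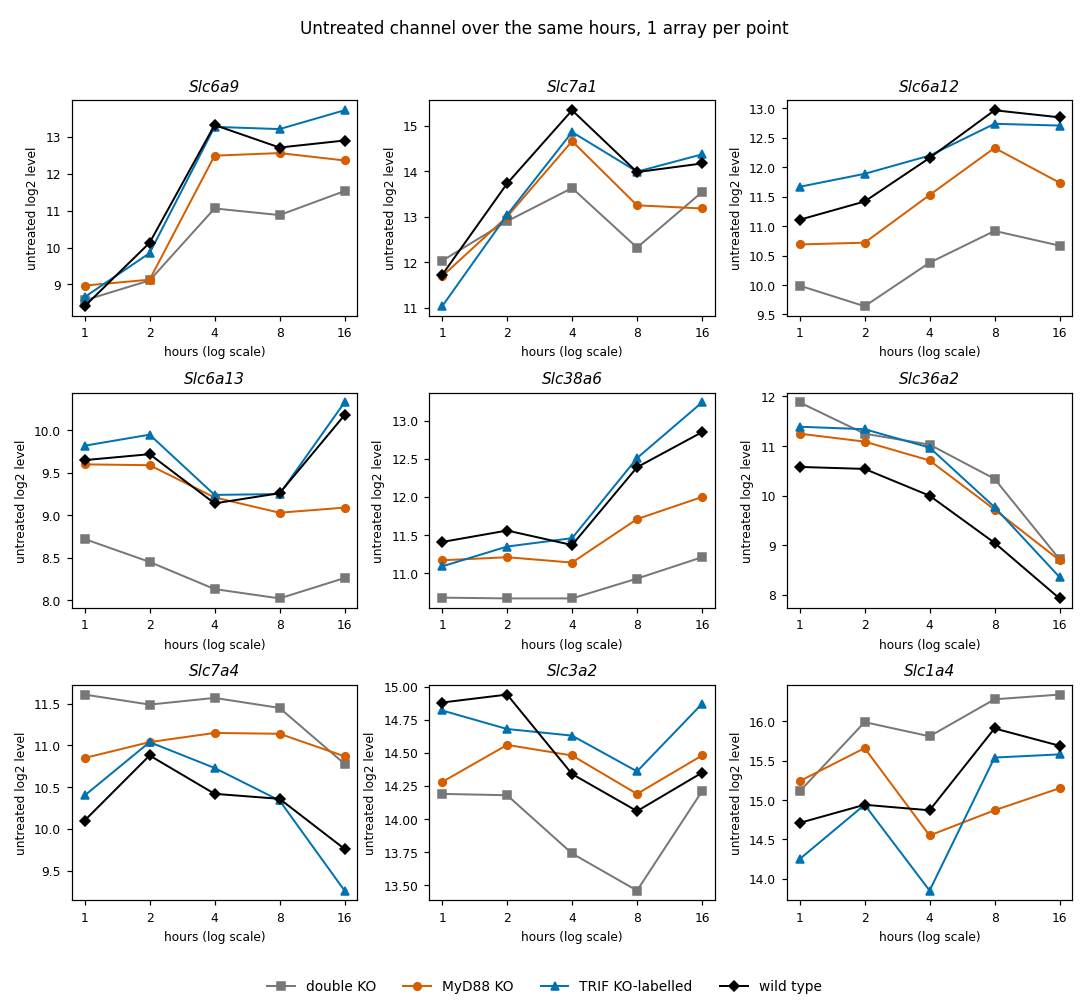
Untreated log2 level against hours in culture (log axis) for Slc6a9, Slc7a1, Slc6a12, Slc6a13, Slc38a6, Slc36a2, Slc7a4, Slc3a2 and Slc1a4, with 1 line per genotype and 1 array per point. Slc36a2 declines with time in every genotype, and the double-KO lines of Slc6a12, Slc6a13 and Slc38a6 run below the wild-type lines.

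The untreated level was also followed over the time in serum-free medium. The slope of the untreated level over log2 hours, shared by the genotypes, was called for 17 of 42 members, 11 upward and 6 downward, against 31.3% of all genes (15.4% upward and 15.9% downward). Slc6a9 climbed by 1.04 ± 0.14 per doubling of time (adjusted p = 3.4e-05), Slc6a12 by 0.35 (4.1e-05) and Slc38a6 by 0.32 (0.00029). Slc7a1 (0.47 ± 0.14, 0.019) and Slc7a5 (0.34, 0.032) were called too, but without the 1 h arrays their slopes were 0.02 (0.94) and 0.06 (0.80). Slc36a2 declined by 0.70 (slope -0.70 ± 0.06, 3.6e-07), and Slc43a3 (-0.30), Slc7a8 (-0.28), Slc36a4 (-0.25), Slc43a2 (-0.14) and Slc7a13 (-0.08) declined as well. In wild-type cells the untreated level of Slc6a9 was 8.41 at 1 h and 12.90 at 16 h. A ratio at a late time therefore stands against an untreated level that had itself moved.

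Other genes of amino acid supply were counted in lists beside the members. The lists were chosen with earlier results of these data known, so their counts are a description and test no programme behind the carriers. Of all genes 16.8, 12.8 and 16.7% rose and 18.7, 16.2 and 19.7% fell in MyD88-KO, TRIF-KO-labelled and wild-type cells, and the counts of each list stand beside these shares. Of 21 genes known as targets or parts of the ATF4 stress response, which switches on amino acid synthesis and import, 12, 18 and 18 rose in MyD88-KO, TRIF-KO-labelled and wild-type cells, none fell, and 0 were called in double-KO cells. Their median log2 ratio was 0.71, 1.02 and 0.90 in the same order. Cebpb had means of 1.02, 1.81 and 2.26, Nupr1 2.18, 1.59 and 1.91, and Trib3 1.40, 1.80 and 1.62, all called. Ddit4 had -0.07, 1.40 and 1.61, called in the last 2 genotypes. Of 18 aminoacyl-tRNA synthetases, 5, 12 and 7 rose and 1, 1 and 0 fell, with Eprs at 0.21, 0.78 and 0.83 and Aars at 0.95, 0.82 and 0.77.

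Of 24 genes of amino acid sensing by mTORC1, 9, 7 and 9 fell and 2, 3 and 2 rose in MyD88-KO, TRIF-KO-labelled and wild-type cells. Over all genes, too, more fell than rose in each of these genotypes. Sesn1, a sestrin, had means of -1.59, -1.58 and -1.66, Mlst8, an mTOR subunit, -0.59, -0.74 and -0.95, and Lamtor1, which anchors the complex at the lysosome, -0.58, -0.95 and -0.84. Rheb, the activating GTPase, rose by 0.65, 0.94 and 0.91. Of 16 enzymes of arginine and glutamine metabolism, 4, 7 and 8 rose and 3 fell in each genotype. Nos2, which makes nitric oxide from arginine, had 2.87, 2.49 and 2.77, Arg2, the mitochondrial arginase, 1.10, 2.23 and 2.68, and Glul, glutamine synthetase, -1.31, -1.07 and -1.24, all called.

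Of 10 enzymes of tryptophan and branched-chain amino acid breakdown, 2, 3 and 3 rose and 2, 3 and 2 fell, with Bckdha at -0.40, -0.65 and -0.63. Of 13 carriers from other families, 4, 2 and 1 rose and 2, 3 and 5 fell in the same order. Among these the lysosomal histidine and peptide carrier Slc15a3 had 1.31, 1.33 and 1.38 and the lysosomal cystine exporter Ctns -0.78, -0.87 and -0.84, all called. The carriers left out of the set both rose in the 3 genotypes, the cystine and glutamate exchanger Slc7a11 by 2.86, 4.58 and 4.12 and the arginine carrier Slc7a2 by 1.67, 1.88 and 3.21.

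Over the 20 ratios, genes with a course much like that of Slc7a5 included Septin11 (Pearson r = 0.93), Myadm, Psat1 and Tpm4 (0.91 each). Those much like Slc3a2 included Mcoln2, Slc15a3 and Ankrd52 (0.97 each) and Gk (0.96). These are descriptions over arrays that share genotypes and times.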

How the data were processed

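Gene expression was measured on 20 Agilent arrays with 2 colours. The scans were read by the authors with Agilent Feature Extraction (version 10.10.1.1), per the file headers. For every spot and channel the deposited files list a mean intensity and a median intensity of the background, neither of them corrected. A log10 ratio from the scanner software stands beside them, per the file headers. It recurs in the deposited value table and served as an alternative. Coordinates of probes refer to mm9, as the headers state, and exons were not annotated.

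Intensities were background-corrected with normexp (offset 50) and normalized by loess within arrays with limma (version 3.58.1, R 4.3.3 and data.table version 1.17.8). Control spots were dropped after correction, outlier spots set to missing and spots of 1 probe averaged. The kept probe of highest mean intensity stood for a gene, and 9 members had more than 1 kept probe. Levels were quantile normalized between arrays on mean intensity. All 20 log2 ratios entered 1 fit with time point as a block. Untreated levels used the Cy3 channel of 19 arrays. P-values were adjusted by Benjamini and Hochberg over all genes (threshold 0.05). Fits were tested on simulated data.

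Replicate numbers mark the time points of the labels. Their deviations correlated at 0.22 to 0.83 for ratios of the responding genotypes, at -0.19 to 0.13 for pairs with double-KO ratios, and at 0.13 to 0.81 for untreated levels. Pairs with double-KO ratios are thus not borne out as paired, and counts without the block are given. The ratios of the array with turned dyes correlated at 0.15 to 0.76 with the other responding arrays and at -0.24 to -0.10 with double-KO arrays.

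Members, roles and gene lists were chosen with earlier results of these data known. Values on every array are given for members with an absolute mean log2 ratio of at least 0.7 and a call, and for Slc3a2, Slc7a5, Slc7a1, Slc1a5, Slc38a2 and Slc38a9. Others were given so after their values were seen. Counts include 1 member that is not reported here by name. From each list at most 4 genes with the largest called means in wild-type cells are named. Markers of T cells, B cells, fibroblasts, erythroid, dendritic and mast cells were also looked up, and of these 8 genes in all were above background on every array. The brightest was the dendritic cell marker Siglech, with mean untreated log2 levels of 17.12 in double-KO to 17.26 in MyD88-KO cells.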

Additional observations from a re-analysis of the deposited data

Results flagged for a closer look

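In groups of 5 arrays, the highest or lowest ratio was tested for a gap to the others, which chance passes in about 1 of 20 groups. Of 72 groups 6 passed. Slc1a2 read 0.96 in MyD88-KO cells at 16 h, with the other times at 0.02 to 0.26. Slc1a4 read 1.36 in TRIF-KO-labelled cells at 16 h, with the others at 0.54 to 0.72. Slc38a9 read -1.56 in MyD88-KO cells at 4 h, with the others at -0.35 to 0.04. Each of these groups holds 5 different times. In double-KO cells, Slc3a2 read -0.26 at 1 h (others -0.13 to -0.09), Slc6a12 -0.21 at 16 h (others 0.03 to 0.06) and Slc7a5 0.89 at 8 h (others -0.40 to -0.05).

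The response differed between double-KO cells and another genotype, by limma with Benjamini-Hochberg adjustment, in 21 member comparisons. Double-KO minus wild-type was -0.88 for Slc38a1, -0.51 for Slc38a2, 1.23 for Slc38a9, -1.11 for Slc3a2, -1.40 for Slc7a1, 0.36 for Slc7a13 and -1.19 for Slc7a8. Double-KO minus TRIF-KO-labelled was 1.23 for Slc38a9, -0.92 for Slc3a2, 0.77 for Slc6a6, -1.70 for Slc7a1, 0.91 for Slc7a4 and -1.02 for Slc7a5. Double-KO minus MyD88-KO was -0.97 for Slc38a6, -0.92 for Slc3a2, -1.24 for Slc43a3, -1.86 for Slc6a4, -1.07 for Slc7a1, 0.39 for Slc7a13, -0.24 for Slc7a15 and -1.24 for Slc7a8.

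Slc1a3, a glial glutamate carrier that did not pass the filter, was well above background in the LPS channel on 1 array and in the untreated channel on none.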

How the results depend on the processing

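The counts of called members depended on the fit, and the cause was not tested except where fewer arrays entered. Counts over all genes depended on it too, so a change in the counts below is not a trait of the members. For the MyD88-KO mean, all genes called ran from 844 with a dye term to 8400 with the scanner's ratio. With 1 time left out, the mean response called 7 to 20 members in MyD88-KO, 6 to 14 in TRIF-KO-labelled and 11 to 19 in wild-type cells. Double-KO differences then ranged over 0 to 8 against wild-type, 0 to 6 against TRIF-KO-labelled and 0 to 11 against MyD88-KO. Slopes ranged over 3 to 9, 0 to 7 and 0 to 8 in MyD88-KO, TRIF-KO-labelled and wild-type cells, and untreated differences from wild-type over 8 to 13 in double-KO, 1 to 6 in MyD88-KO and 0 to 1 in TRIF-KO-labelled cells. With a dye term the means called 1, 1 and 2 members in MyD88-KO, TRIF-KO-labelled and wild-type cells and the slopes 5 in MyD88-KO and 2 in wild-type. With ratios scaled between arrays, the means called 5 members in double-KO cells, 12 in MyD88-KO cells and 9 in wild-type cells, double-KO minus wild-type 4, and the slopes 3 in MyD88-KO and 1 in TRIF-KO-labelled cells. Without the replicate block (time point), the TRIF-KO-labelled mean called 9, each double-KO difference 0, and the untreated differences 5, 0 and 0 in double-KO, MyD88-KO and TRIF-KO-labelled cells. With scan day as a block, double-KO differences were 3 against wild-type, 1 against TRIF-KO-labelled and 13 against MyD88-KO, slopes 1 in MyD88-KO and 3 in wild-type, and untreated differences 3 in double-KO and 0 in MyD88-KO. With slide as a block, the means called 2, 4 and 0, each double-KO difference and each slope 0, and the untreated differences 4, 2 and 0. Slides hold few genotypes each, so that block takes much of the difference between genotypes with it. It reversed 12 values: the wild-type mean of Slc7a5 (-0.20); double-KO minus wild-type for Slc38a2 (0.02), Slc38a9 (-0.36), Slc3a2 (0.41) and Slc7a1 (0.33); minus TRIF-KO-labelled for Slc3a2 (0.28) and Slc7a5 (0.15); minus MyD88-KO for Slc3a2 (0.12) and Slc7a1 (0.31); and untreated double-KO minus wild-type for Slc6a9 (0.42), Slc7a1 (0.70) and Slc7a7 (0.12). Without the double-KO array of 8 h, the differences were 3, 1 and 0. Without the MyD88-KO array of 2 h, slopes were 5 in MyD88-KO and 2 in wild-type. With no filter, double-KO minus TRIF-KO-labelled called 2, and with the scanner's ratio the slopes were 5 in TRIF-KO-labelled and 2 in wild-type cells. Over 1742 member values across the alternatives, 1185 stayed called in the same direction, 545 were no longer called and 12 reversed. Leaving out the double-KO array of 8 h, and the test within the second scan day, were chosen after seeing the data. Signals near background, as for Slc6a19 and Slc1a2 in untreated cells, give only lower bounds.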
